A study of Mus musculus with 10 samples.

Results

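RNA-seq libraries of mouse cerebral cortex carry one of 2 codes in their titles, B1 or B2, and the 4 B2 libraries were compared here with the 6 B1 libraries, which together are all 10 libraries of the series. Members were chosen by the code printed in the title, and the labels do not state what the code means. The B1 libraries are control 08 (Brapflox/wt Cre-), control 09 (Brapflox/flox Cre-), BrapcKO 04 and 07 (Brapflox/ko Cre+) and BrapcKO 05 and 06 (Brapflox/flox Cre+). The B2 libraries are control 22 and 23 (Brapflox/wt Cre-), control 24 (Brapflox/flox Cre-) and BrapcKO 21 (Brapflox/ko Cre+). All mice were C57BL/6 and aged 3 months, and every one carried at least 1 floxed Brap allele. BrapcKO marks the conditional knockout of Brap, which encodes a ubiquitin ligase known to restrain Ras signalling to MAP kinases. Which promoter drives Cre, and which part of Brap is deleted, is not stated in the labels. The code and the group are unevenly crossed, with 2 controls and 4 BrapcKO libraries in B1 and 3 controls and 1 BrapcKO library in B2, so the group was kept as a term in the fit, and the comparison was repeated in the 5 controls alone. Whether each library is 1 animal is not stated, so p-values here reflect the scatter among libraries, which may be partly technical.

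Some background bears on which genes a sequencing count can hold apart. Many genes for ribosomal proteins, metabolic enzymes and cytoskeletal proteins have intronless copies elsewhere in the genome, called processed pseudogenes, and a short read from the parent gene can match its copies equally well. Other genes overlap a gene on the opposite strand, or end close to the end of a neighbour that runs towards them, and reads there can be given to 1 gene or the other only if the strand or the exact end of the transcript is known. Gene counts in such places depend on how reads are aligned and assigned as well as on the amount of RNA.

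The code separated the libraries more than the knockout did. Total counts were 17188901 to 20955211 in the B1 libraries and 26356508 to 28991874 in the B2 libraries, a difference of 8570000 at fixed group (two-sided exact permutation test of the code within each group, p = 0.02, the smallest that 50 arrangements allow). The first principal component held 55.7% of the variance of log2 CPM (CPM is a gene's count scaled to library depth, here with TMM factors). It placed the B2 libraries at 49 to 52.7 and the B1 libraries at -40.1 to -29.7. The second held 15.5% and placed the controls at 8.6 to 30.5 and the BrapcKO libraries at -39.2 to -3. On the third, with 6.9%, control 24 stood apart at -33.3. The mean log2 CPM of a set of Y-linked genes was above 0 in 3 of 6 B1 and 2 of 4 B2 libraries, so high levels did not follow the code. Among the low libraries it was -3.68, -3.24 and -3.67 in control 08, control 09 and BrapcKO 04 (B1). In control 22 and 24 (B2) it was lower, at -4.52 in each.

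**Figure D1:**
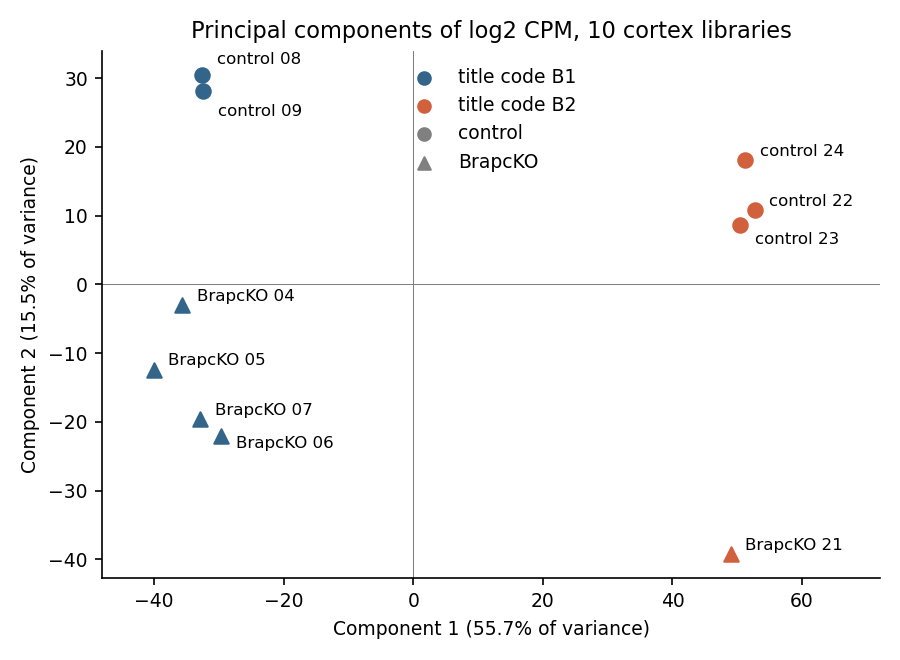
Principal components of log2 CPM over 14276 genes; each point is 1 library, coloured by title code (B1, B2) and shaped by group (control, BrapcKO). Component 1 (55.7% of the variance) separates the codes, and component 2 (15.5%) separates the groups.

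Of 14276 genes, 3589 differed between the codes at an adjusted p under 0.05 in edgeR's quasi-likelihood test (25.1%), 1907 of them higher in B2 (13.4%) and 1682 lower (11.8%). Differences larger than 2-fold numbered 567 upward and 328 downward. In the 5 controls alone 2057 genes were called (14.4%), 1297 higher and 760 lower. The difference between BrapcKO and control at fixed code was called for 1152 genes (8.07%), 446 higher and 706 lower. The code but not the group was called for 1787 higher and 1483 lower genes. The group but not the code was called for 334 genes higher and 499 lower in BrapcKO. Both were called for 98 genes higher in B2 and in BrapcKO and for 185 lower in both. Directions were opposite for 22 genes higher in B2 and 14 lower in B2. All 4 B2 libraries lay on one side of all 6 B1 libraries for 2788 genes (19.5%). A test of whether the code difference itself differed between control and BrapcKO called 0 genes (0%) in edgeR, with 1069 at an unadjusted p under 0.05 and 31 called by DESeq2; it rests on BrapcKO 21 as the only BrapcKO library of code B2. The counts lean on single libraries: without BrapcKO 21 the code was called for 2314 genes. In controls alone the number was 667 without control 08, 691 without 09, 1350 without 22 and 4148 without 24. For the group it was 406 without BrapcKO 21, 558 without control 08 and 516 without control 09.

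Of the 10 largest rises among genes the rule could name, 8 were in genes with near-identical copies at other loci; the others were Ajm1, under opposite-strand exons, and Usmg5, with 8.246% of its sequence windows shared. To show why their counts are hard to hold apart, the first 120 coding bases of 3 of the 8 are printed with the same stretch from other loci, read from the GENCODE M21 transcripts of GRCm38. Capitals mark bases that differ from the first sequence of each set. Ftl1 (light chain of ferritin, the iron store of the cell; its stretch lies within chr7:45459213-45459631, minus strand) matched 9 other loci with at most 12 mismatches, 3 of them identical:
Ftl1: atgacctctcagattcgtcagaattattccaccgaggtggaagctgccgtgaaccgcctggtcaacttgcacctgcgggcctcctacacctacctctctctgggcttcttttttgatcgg
Ftl1-ps1 (chromosome 13): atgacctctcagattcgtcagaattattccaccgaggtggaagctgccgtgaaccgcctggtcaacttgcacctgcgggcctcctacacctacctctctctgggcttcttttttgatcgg
Ftl2-ps (chromosome 4): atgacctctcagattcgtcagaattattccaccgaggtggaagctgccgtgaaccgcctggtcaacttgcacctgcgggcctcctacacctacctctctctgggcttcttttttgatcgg
Rps27 (a protein of the small ribosomal subunit; within chr3:90213040-90213615, minus strand) matched 7 other loci within that limit, 1 of them identical:
Rps27: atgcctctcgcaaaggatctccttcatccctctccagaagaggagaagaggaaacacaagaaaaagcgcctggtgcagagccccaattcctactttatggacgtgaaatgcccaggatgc
Rps27rt (chromosome 9): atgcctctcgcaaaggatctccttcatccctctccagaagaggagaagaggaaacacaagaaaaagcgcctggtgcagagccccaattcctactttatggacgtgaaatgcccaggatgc
Gm17241 (chromosome 15): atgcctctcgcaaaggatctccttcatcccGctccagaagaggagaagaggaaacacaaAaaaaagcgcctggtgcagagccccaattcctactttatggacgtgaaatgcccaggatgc
Gm19246 (chromosome 7): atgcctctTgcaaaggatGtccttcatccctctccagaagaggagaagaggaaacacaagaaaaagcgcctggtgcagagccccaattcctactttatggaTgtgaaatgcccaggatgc
Actg1 (gamma actin of the cytoskeleton; chr11:120347972-120348091, minus strand, in 1 exon) matched 4 other loci, 1 of them identical:
Actg1: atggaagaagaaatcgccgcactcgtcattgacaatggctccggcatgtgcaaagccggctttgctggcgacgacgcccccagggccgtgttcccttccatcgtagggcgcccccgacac
Gm12715 (chromosome 4): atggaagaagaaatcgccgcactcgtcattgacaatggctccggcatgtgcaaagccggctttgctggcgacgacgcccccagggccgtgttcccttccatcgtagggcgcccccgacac
Gm8399 (chromosome 13): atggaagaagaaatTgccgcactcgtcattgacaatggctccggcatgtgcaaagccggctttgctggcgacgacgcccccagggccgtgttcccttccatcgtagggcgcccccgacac

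Actg1 stood at 204, 205 and 327 CPM in control 22, 23 and 24 and at 204 CPM in BrapcKO 21. In the 6 B1 libraries it ran from 1.07 to 2.7 CPM with a median of 1.33. The log2 difference was 7.23 (SE 0.24, edgeR adjusted p 4.8e-10) and 7.51 in controls alone, the largest rise among the named genes, and the group difference was -0.1 (adjusted p 0.88). So every B2 library was far above every B1 library, whatever its group. The rule for naming took only genes whose codes do not overlap. Ftl1 stood at 112, 108, 95.8 and 119 CPM in control 22, 23, 24 and BrapcKO 21, against 1.04 to 1.42 CPM (median 1.12) in B1, a log2 difference of 6.54 (SE 0.11, edgeR adjusted p 5.7e-13). Rps27 stood at 114, 110, 91.8 and 113 CPM, against 1.32 to 2.7 CPM (median 1.97), a log2 difference of 5.86 (SE 0.14, edgeR adjusted p 5.4e-12). Other genes that the rule for naming took for the size or the certainty of their rise were Rpl17, Rpl36, Rpl19, Rps25, Rpl9 and Rpsa, all proteins of the cytosolic ribosome, Tpt1, a growth-associated tumour protein, Usmg5, a small subunit of the mitochondrial ATP synthase, and Ajm1, a protein of apical cell junctions. Their log2 differences ran from 4.78 (Rpsa) to 6.56 (Rpl17), with group differences between -0.21 and 0.37, none of them called.

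**Figure D2:**
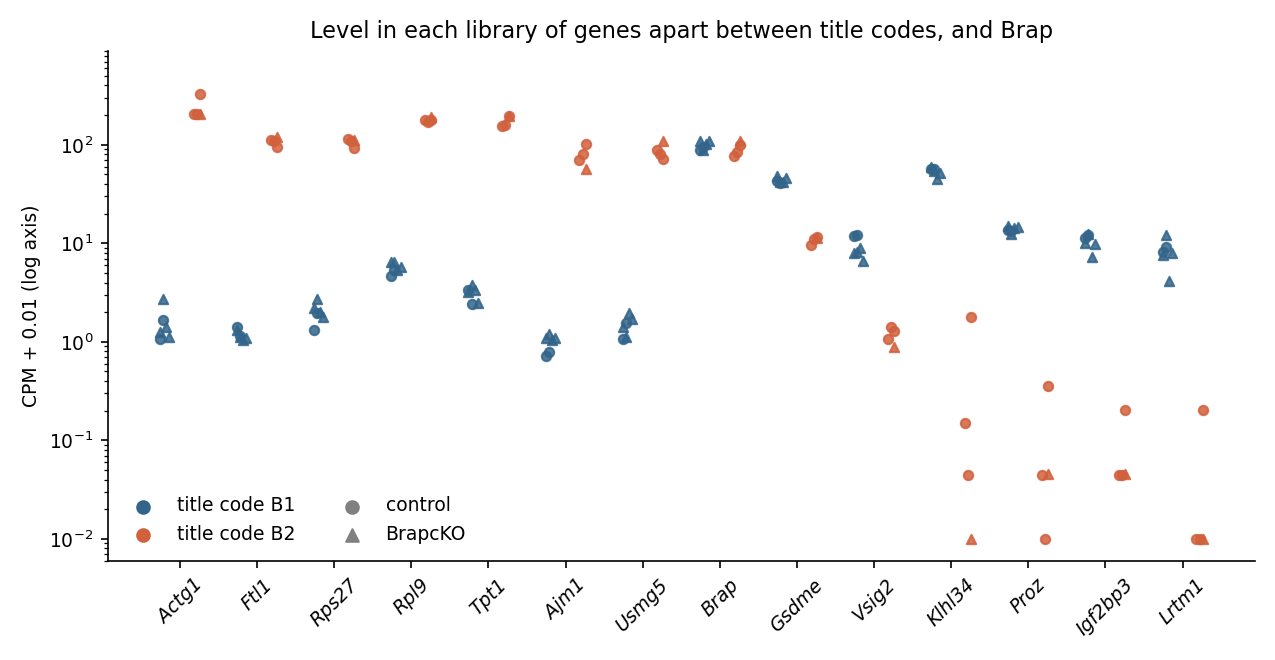
Level of 14 genes in each library, as CPM + 0.01 on a log axis; points are libraries, coloured by title code (B1, B2) and shaped by group (control, BrapcKO). Actg1, Ftl1, Rps27, Rpl9, Tpt1, Ajm1 and Usmg5 were higher in all B2 libraries. Gsdme, Vsig2, Klhl34, Proz, Igf2bp3 and Lrtm1 were lower in all of them, and the levels of Brap overlapped. All but Brap were named by a rule that required the codes not to overlap.

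The share of genes that rose followed the share of their sequence found elsewhere. For each gene, all stretches of 50 bases of its transcripts (windows) were compared with the transcripts of all other loci. These classes were drawn up after values had been seen and were not tested. Among 10027 genes with no shared window, 9% were higher in B2 and 12.2% lower, near the 13.4% and 11.8% of all genes. The share of higher genes was 37.1% with 5 to 10% of windows shared, 52% with 10 to 25%, 72.1% with 25 to 50%, 76.7% with 50 to 75% and 78% above that. Of the 908 genes with at least 10% shared windows, 566 were higher and 31 lower, and 464 and 25 were called in controls alone; their median log2 difference was 0.69, against -0.02 over all genes. In controls alone 1297 of all 14276 genes were higher and 760 lower. For the group, 19 of the 908 were higher and 19 lower (4.19% called, against 8.07% of all genes). Levels of such genes are to be read with care in either code, since reads of shared windows can match other loci too. Whether the reads of both codes were aligned and assigned to genes in the same way is not stated in the sources used here and was not tested.

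Overlap with exons of the opposite strand went with the code as well. Ajm1 has 91.04% of its exon bases under opposite-strand exons, and the long non-coding gene Gm26702 lies across its coding start. The first 60 coding bases of Ajm1 (chr2:25579838-25579897, minus strand) are printed to show the overlap, with the transcript of Gm26702 read from the other strand over the same positions; each is the reverse complement of the other:
Ajm1: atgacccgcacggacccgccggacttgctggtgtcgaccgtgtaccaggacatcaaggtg
Gm26702: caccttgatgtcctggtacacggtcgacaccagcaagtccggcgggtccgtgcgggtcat
Ajm1 stood at 70.8, 80.7, 102 and 57.4 CPM in control 22, 23, 24 and BrapcKO 21. In B1 it ran from 0.712 to 1.18 CPM (median 1.06), a log2 difference of 6.21 (SE 0.19, edgeR adjusted p 6.3e-11). Of the 14 genes with over 75% of their exon bases under opposite-strand exons, 14 were higher in B2. The share was 72.5% of 80 genes with 50 to 75%, 55.4% of 401 with 25 to 50% and 27.8% of 989 with 10 to 25%. Among genes with none it was 10.6%. In the class with at least 10% opposite-strand exons and few shared windows, 508 of 1394 genes were higher and 92 lower (median 0.23). There 380 and 53 were called in controls alone, against 1297 and 760 of all 14276 genes. Neuronal genes in this class included Tshz2 (a transcription factor of deep-layer neurons, log2 difference 2.67), Slc32a1 (the vesicular transporter of GABA, 1.13, also called for the group at 0.54), Grin1 (the obligatory NMDA receptor subunit, 0.88) and Syp (a synaptic vesicle protein, 0.86). Dbp, a transcription factor of the circadian clock, was in it too, at 1.83. These risers do not stand for all genes of such functions. Higher and lower were 1 and 9 of 40 postsynaptic density genes and 2 and 4 of 36 presynaptic release genes. For inhibitory neurons they were 4 and 4 of 25, for deep-layer neurons 4 and 2 of 18, and for the circadian clock 4 and 6 of 23. Over all genes 13.4% were higher and 11.8% lower.

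The 10 largest falls were in genes that lie inside a gene of the opposite strand, overlap one or end near one. Klhl34, a Kelch-family gene that ends 1066 bases from the end of Cnksr2 (a postsynaptic scaffold) running towards it, stood at 0.139, 0.0349, 1.77 and 0 CPM in control 22, 23, 24 and BrapcKO 21. In B1 it ran from 45.4 to 60.1 CPM with a median of 55.6. In all, 6378 reads were counted in B1 and 51 in B2, a 120-fold lower share of reads in B2 (exact 95% interval 91.3 to 162, counting error only). Control 24 held 46 of the 51, and without it, a check chosen after seeing the data, the ratio was 939 (402 to 2.89e+03). Hipk4, a kinase gene 824 bases from the end of Pld3, fell from 39.8 to 68.1 CPM in B1 to 0.104, 0.14, 2.35 and 0.142 CPM. Proz, for the clotting factor protein Z made in liver, lies 1162 bases from the end of Pcid2 and fell from 12.4 to 14.9 CPM to 0.0346, 0, 0.347 and 0.0354 CPM. Their B2 values did not overlap B1, as the rule for naming required, and control 24 was the highest B2 library for each. Lrtm1, which lies wholly within the calcium channel gene Cacna2d3 on the other strand, had 948 reads in B1 and 5 in B2, and was at 0 in 3 of the 4 B2 libraries.

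Igf2bp3, an RNA-binding protein of embryonic tissue, overlaps the end of Malsu1 on the opposite strand. It stood at 7.32 to 12.4 CPM (median 10.7) in B1, and at 0.0346, 0.0349, 0.193 and 0.0354 CPM in control 22, 23, 24 and BrapcKO 21. Each gene counted had at least 0.582 CPM in at least 5 libraries, a level that Igf2bp3 met in B1 libraries only. The rule for naming also required that its codes not overlap. Malsu1, a mitochondrial ribosome assembly factor named here after its values were seen, has 40.48% of its exon bases under opposite-strand exons and moved the other way, from 9.77 to 12.7 CPM in B1 to 15.9 to 17.5 CPM in B2 (log2 difference 0.62, edgeR adjusted p 0.00097). Tshb (a subunit of thyrotropin, the pituitary hormone that drives the thyroid) and Tex47 (a testis-expressed gene) lie within Tspan2 and Zfp804b, and had 406 and 231 reads in B1 and 3 and 2 in B2. Speer4b, within Dpp6, had 218 reads in B1 and 1 in B2, in control 24 (ratio 209, exact 95% interval 37.2 to 8.31e+03); Mettl21c had 215 and 2, and Stap1, a signalling adaptor, 348 and 4. Lrtm1, Proz, Tshb, Tex47, Speer4b, Mettl21c and Stap1 likewise reached 0.582 CPM in B1 libraries only. Fitted log2 differences of genes with so few B2 reads depend on the prior count and are not given. Smaller but more certain falls were those of Cabyr (53 bases from the end of Osbpl1a, log2 difference -4.81), Vsig2 (286 bases from the end of Nrgn, which encodes the abundant postsynaptic protein neurogranin, -3.22), Star (a cholesterol carrier of steroid synthesis, 13 bases from the end of Ash2l, -2.79) and Gsdme (gasdermin E, which overlaps Mpp6, -1.98). Cabyr and Vsig2 were also called for the group, at -0.70 and -0.57 (edgeR adjusted p 0.02 and 0.032).

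Where the facing neighbour was much more abundant, distance to it tracked the falls. These were genes with no shared window and no exon base inside another gene that face an opposite-strand gene over 8-fold more abundant. Of them 39.8% of 98 were lower in B2 when the ends lay under 1 kb apart. The share was 26.1% at 1 to 5 kb, 14.3% at 5 to 10 kb and 11.5% at 10 to 20 kb. Further out it was 5.8% at 20 to 50 kb, 3.2% at 50 to 100 kb and 5.3% beyond 100 kb. Over all genes 11.8% were lower. The share higher in B2 stayed between 1.6% and 6.5%. With a facing neighbour of any level the trend was weaker. There 16.7% of 472 genes were lower under 1 kb and 15.2% at 1 to 5 kb. Beyond that the share lay between 8.7% and 11.8%. A further class had at least 50% of exon bases inside an opposite-strand gene, but under 10% shared windows and under 10% opposite-strand exons. Of its 550 genes 103 were lower (18.7%) and 30 higher (5.5%), against 11.8% and 13.4% of all genes. Ajm1, with 93.01% of its exon bases inside an opposite-strand gene, is not in this class and was higher. Low levels in B2 and low levels in B1 were not equally visible: each gene of the table had at least 0.582 CPM in at least 5 libraries, so a gene below that in all 6 B1 libraries cannot be in it, while 169 genes were below it in all 4 B2 libraries.

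**Figure D3:**
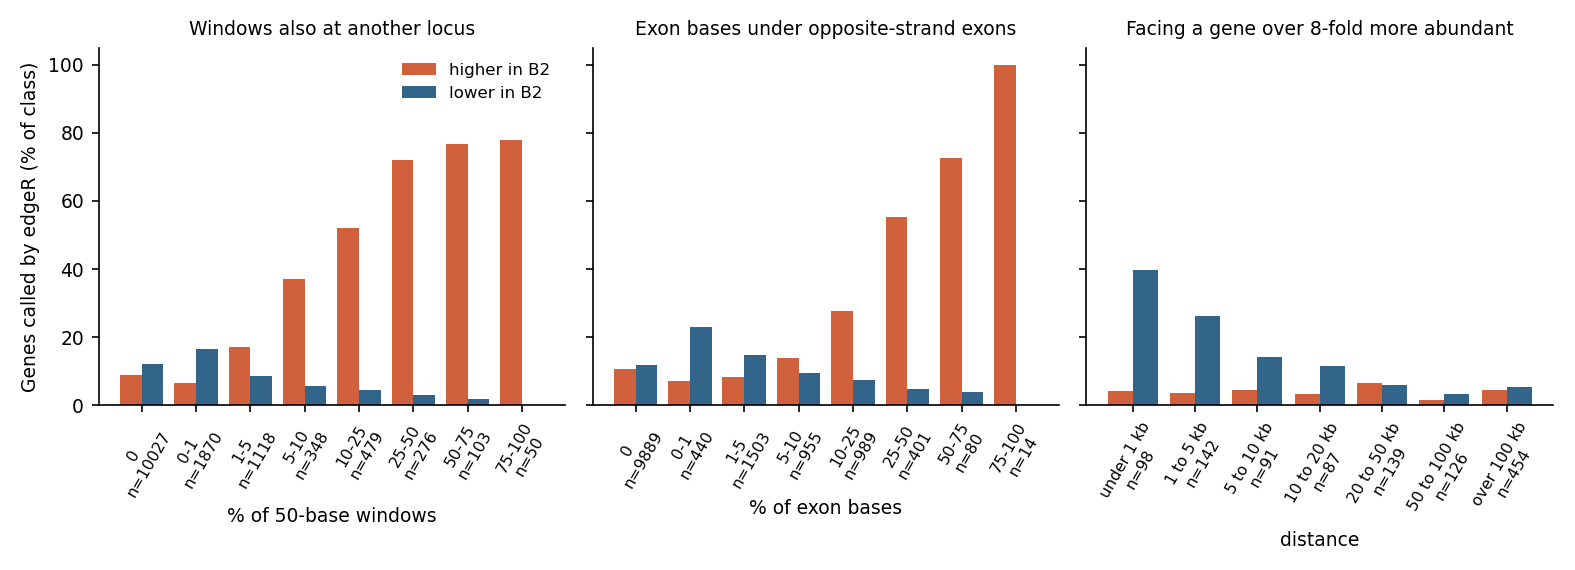
Percentage of genes called higher or lower in B2 (edgeR, adjusted p under 0.05) by the share of 50-base windows also present at another locus, by the share of exon bases under opposite-strand exons, and by distance to a facing gene over 8-fold more abundant; n is the number of genes in each class. The share of higher genes climbs to 78% and 100% in the first 2 panels, and the share of lower genes reaches 39.8% under 1 kb in the third.

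When genes with such features were set aside, 4780 stand-alone genes remained. They share no window, have no exon base inside another gene and face no more abundant measured gene within 20000 bases. Other genes may still lie within their introns. Of these, 804 were called for the code (16.8%), 289 higher and 515 lower, and only 19 and 18 of them by more than 2-fold; 162 and 183 were called in controls alone. When the stand-alone genes were normalised and fitted by themselves the split was the other way, with 268 higher and 222 lower (490 in all, 10.3%). In that fit the group was called for 509 genes (10.6%), and the code in controls alone for 42 (0.879%), 29 higher and 13 lower. The fits differ in normalisation, in the number of genes tested and in the estimated spread.

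Transcript length followed the code in all genes and in stand-alone genes. Genes were put in 10 equal classes by length. The median log2 difference between B2 and B1 was 0.14 in the shortest class (at most 797 bases) and -0.21 in the longest (over 5098 bases). In stand-alone genes it went from 0.09 to -0.22, and from 0.13 to -0.18 when they were fitted by themselves. For the group the same medians were 0.05 and -0.05. Of 1427 genes in the longest class 425 were lower and 33 higher in B2; of 1428 in the shortest 101 were lower and 402 higher. Each library's slope of centred log2 CPM per doubling of transcript length was 0.0587 ± 0.0246 in B1 (SD, n = 6) and -0.088 ± 0.0255 in B2 (SD, n = 4). The slopes ran from 0.0191 to 0.0916 in B1 and from -0.11 to -0.057 in B2, with no overlap. The difference at fixed group was -0.16 (two-sided exact permutation test, p = 0.02, the smallest possible). In stand-alone genes the difference was -0.0936, and BrapcKO 06, at -0.0126, lay just above control 23, at -0.0139. Genomic span gave a slope difference of -0.0774 (exact permutation p = 0.02). GC content gave 0.0111 per percentage point (exact permutation p = 0.3), with control 24 at 0.032 and the other 9 libraries between -0.0106 and 0.00232. Without BrapcKO 21 only 10 arrangements remain and the smallest p they allow is 0.1.

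**Figure D4:**
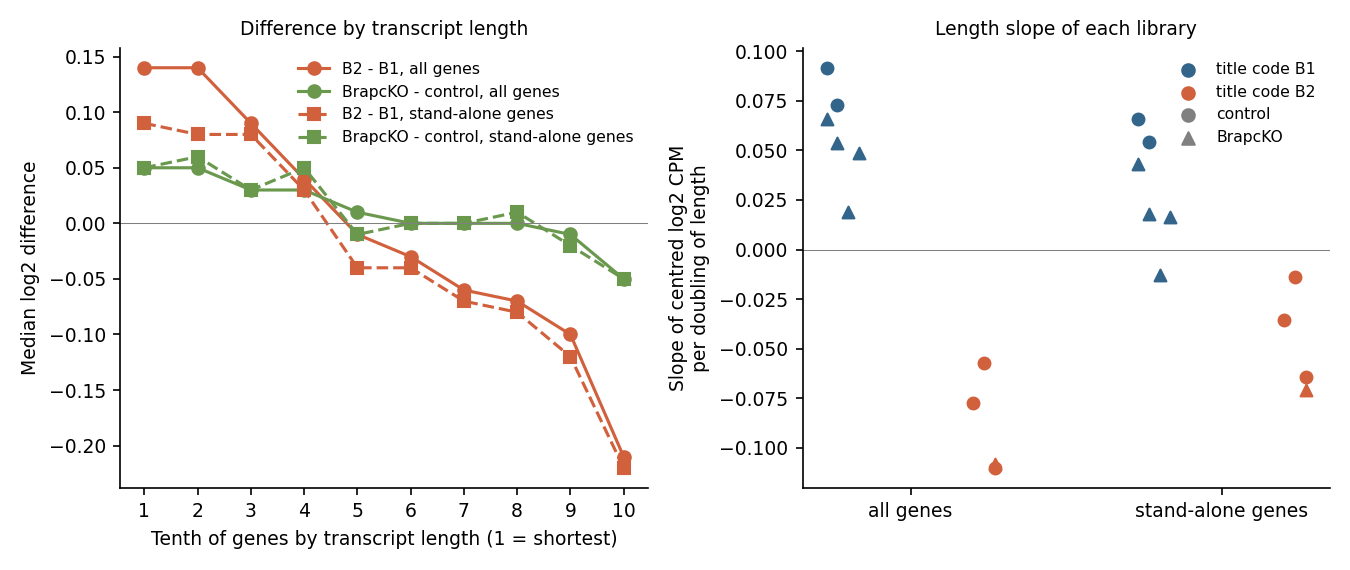
Left, median log2 difference in 10 classes of genes by transcript length, for B2 minus B1 and for BrapcKO minus control, over all and over stand-alone genes. Right, slope of centred log2 CPM per doubling of length in each library, coloured by title code and shaped by group (control, BrapcKO); over all genes the 6 B1 libraries lie above 0 and the 4 B2 libraries below it.

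Among gene classes, those of protein synthesis and energy supply were higher in B2. For comparison, 13.4% of all genes were higher and 11.8% lower, and 6% and 10.8% of stand-alone genes. Of 77 cytosolic ribosomal protein genes 74 were higher and 0 lower (median 2.71; all genes -0.02), and 70 were higher in controls alone; 70 of the 77 have copies elsewhere, and the single stand-alone one was not called. Summed over the list, the B1 libraries held 2140 to 2460 CPM and the B2 libraries 7180 to 8720 CPM, while 0 of the 77 were called for the group. Histone genes, of which 31 of 40 share sequence with another locus, rose in 29 cases with 0 lower (median 1.58), Hist1h4a by 2.88. The nuclear-encoded genes of the respiratory chain, the ATP-making machinery of mitochondria, rose in 54 of 79 cases with 0 lower (median 0.45), and among their 27 stand-alone members 11 rose and 0 fell (median 0.28). Cox7c and Cox5a, subunits of cytochrome c oxidase, differed by 4.36 and 2.51. The proteasome, which degrades proteins tagged with ubiquitin, had 18 of 37 genes higher and 0 lower, with Psmb5 at 2.03. Of its 13 stand-alone genes 6 were higher (median 0.26). For the group 4 of the 37 were higher and 0 lower, where 446 of all 14276 genes were higher. The group median was 0.22, over all members and over stand-alone ones. Mitochondrial ribosomal proteins were higher in 33 of 77, and in 5 of 14 stand-alone genes (median 0.23). For the group 0 of the 77 were called, and the median over stand-alone ones was 0.16. In the fit of stand-alone genes by themselves 5 proteasome and 5 mitochondrial ribosomal genes were higher and 0 lower. Over all 4780 genes of that fit 268 were higher and 222 lower. The same fit in controls alone called 1 of 13 proteasome, 0 of 14 mitochondrial ribosomal and 2 of 27 respiratory chain genes, all higher. Over its 4780 genes 29 were higher and 13 lower.

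Splicing factors (33 higher, 7 lower of 70), translation initiation factors (24 and 5 of 53) and heat shock genes (14 and 0 of 27) were mainly higher too. Their leading members, Hnrnpa1 (3.13), Eif4a1 (2.34) and Hsp90aa1 (2.23), an RNA-binding protein, a helicase and a chaperone, all have copies elsewhere. Among stand-alone members the counts were 1 higher and 2 lower of 11, 4 and 2 of 15, and 1 and 0 of 9. Of all stand-alone genes 6% were higher and 10.8% lower, so the splicing factor and heat shock counts lay near those shares. Over all genes, stand-alone or not, the shares were 13.4% and 11.8%. Of 25 genes of cholesterol synthesis 7 were higher and 0 lower, led by Idi1 at 2.54; 0 of the 11 stand-alone ones were called.

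Lower in B2 were classes of long genes. For comparison, 11.8% of all genes were lower and 13.4% higher, and 10.8% and 6% of stand-alone genes. Of 45 chromatin remodellers and methyltransferases 25 were lower and 1 higher (median -0.30), among them Kmt2c (a histone methyltransferase, -0.54) and Arid2 (a subunit of a chromatin-remodelling complex, -0.47). Among 14 stand-alone ones 8 were lower and 0 higher. When stand-alone genes were fitted by themselves 3 of the 14 were lower, and 222 of all 4780. Of 25 long genes linked to autism 11 were lower and 0 higher (median -0.23). For the group 6 of the 25 were lower and 0 higher (median -0.15), where 706 of all 14276 genes were lower. Stand-alone members here were Gpc6 (a cell-surface proteoglycan), which ran from 11.9 to 15.1 CPM in B1 (median 13.4) and stood at 8.35, 8.52, 9.83 and 6.98 CPM in control 22, 23, 24 and BrapcKO 21. Its log2 difference was -0.76 (SE 0.12, edgeR adjusted p 0.00037) and its group difference -0.21 (adjusted p 0.3). Pcdh9, an adhesion protein, and Dmd, the dystrophin gene, fell by 0.55 and 0.53 on the log2 scale, and the codes overlapped for both. In the fit of stand-alone genes by themselves Pcdh9 was also called for the group, at -0.39 (edgeR adjusted p 0.018). Dlg2, a postsynaptic scaffold, fell by 0.54 and Pclo, a giant protein of the presynaptic active zone, by 0.61. Of 43 collagens 14 were lower and 0 higher (median -0.32); Col19a1, at -0.64, was also called for the group, at -0.87, and its codes overlapped.

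**Figure D5:**
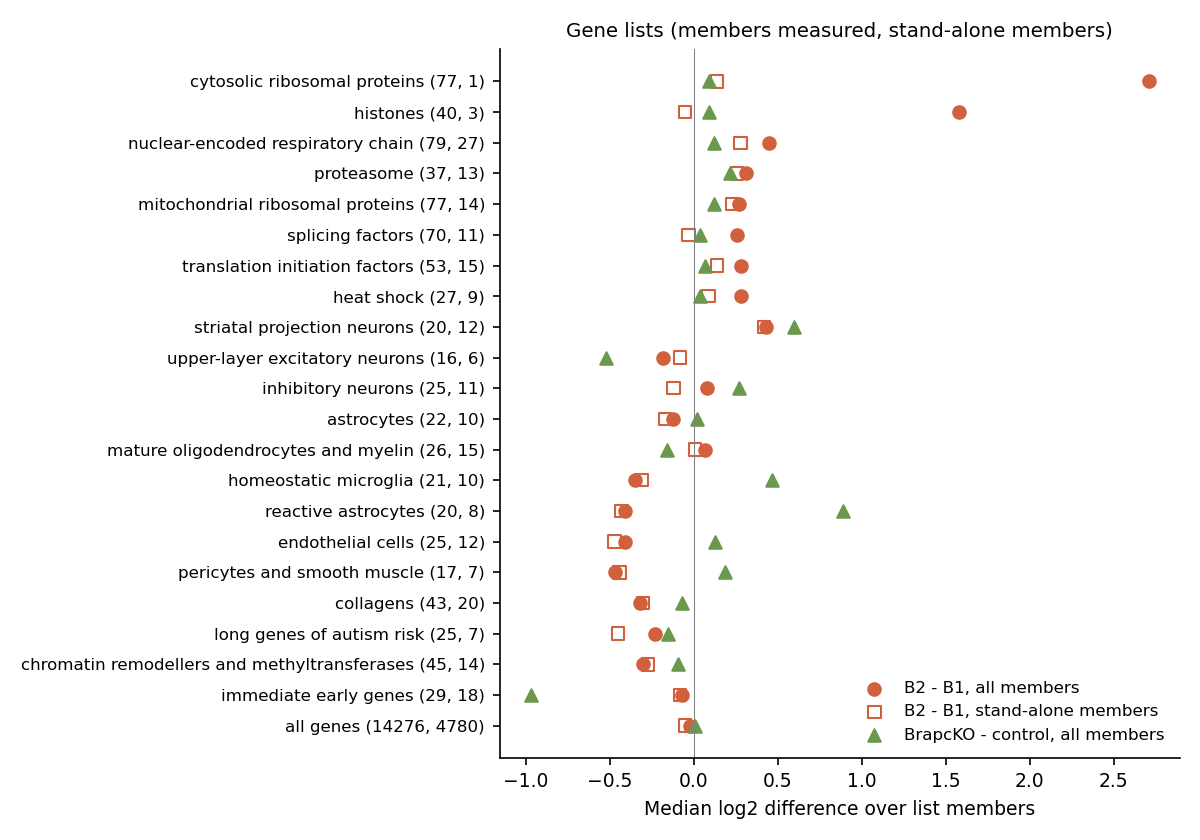
Median log2 difference over the measured members of 21 gene lists and of all genes: B2 minus B1 over all members and over stand-alone members, and BrapcKO minus control over all members; brackets give the number of members and of stand-alone members. Cytosolic ribosomal proteins have the highest B2 median (2.71), and immediate early genes have the lowest median for BrapcKO minus control (-0.97).

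Among cell types, vessel genes were lower in B2, though not they alone. Of 25 endothelial genes 8 were lower and 1 higher (median -0.41). Pericyte and smooth muscle genes were lower in 8 and higher in 1 of 17 (median -0.47). Over all genes 11.8% were lower and 13.4% higher. For the group, 0 and 0 endothelial and 1 and 0 mural genes were higher and lower. Meningeal fibroblast genes were lower in 6 and higher in 0 of 19 for the code (median -0.33). Reactive astrocyte genes had a median of -0.41, with 3 lower and 1 higher of 20. Pecam1, an adhesion molecule of endothelium, ran from 17.4 to 31.8 CPM in B1 (median 21.9) and stood at 14.6, 13.5, 10.4 and 14.5 CPM in control 22, 23, 24 and BrapcKO 21, a log2 difference of -0.67 (SE 0.17, edgeR adjusted p 0.01). Tek and Kdr, receptors for angiopoietins and VEGF, differed by -0.68 and -0.75, and Vtn, made by pericytes, by -0.59. The codes did not overlap for Pecam1, Tek and Vtn and overlapped for Kdr, and all 4 are stand-alone genes. The fit of stand-alone genes by themselves left 1 of 12 endothelial genes and 2 of 7 mural genes called, all lower. In that fit 222 of all 4780 stand-alone genes were lower, so the endothelial count was near the share over all. Pecam1 at -0.62 and Vtn at -0.55 were among those called, with Tek and Kdr at edgeR adjusted p 0.051 and 0.06. In controls alone 2 endothelial genes were lower and 1 higher, and 1 mural gene was lower and 1 higher, so most of these calls were not made there. In bulk tissue fewer cells of a type and less RNA per cell cannot be told apart.

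Of other cell types, several lists had about the share of calls seen over all genes (13.4% higher, 11.8% lower). Striatal projection neuron genes were higher in 7 of 20 cases and lower in 0 (median 0.43), but 12 of the 20 were also higher in BrapcKO (median 0.60). Ppp1r1b, a dopamine-signalling protein of those neurons, ran from 71.3 to 223 CPM in B1 and stood at 207, 148, 122 and 389 CPM in B2, so the codes overlapped, as they did for Gpr6, a receptor of the same cells, at 17.3, 8.94, 12.5 and 17.5 CPM against 4.73 to 9.87 CPM. Summed over the list, striatal genes held 1290 to 2610 CPM in the B1 and 1570 to 3040 CPM in the B2 libraries, so every cortex library had reads of them; their part in the differences was not tested. Inhibitory neuron genes were higher in 4 and lower in 4 of 25, near the shares over all genes. A pair of stand-alone genes of that list, Sox6 (a transcription factor) and Erbb4 (the neuregulin receptor), fell by 0.53 and 0.43 on the log2 scale, with no overlap between codes. Upper-layer neuron genes were lower in 4 of 16 and higher in 0 for the code (median -0.18), and lower in 8 and higher in 2 for the group (median -0.52). Astrocyte genes were lower in 3 of 22 and myelin genes higher in 3 and lower in 1 of 26, again near the shares over all genes or below them; Slc1a2, the main glutamate transporter, differed by -0.57 and Mbp, the myelin basic protein, by 0.40. No homeostatic microglia gene was called (0 of 21, median -0.35), nor any choroid plexus and ependyma gene (0 of 17, median 0.67). Zbtb20, a transcription factor of hippocampal neurons and astrocytes, was lower in all B2 libraries, at 144 to 215 CPM against 290 to 445.

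Activity and glial response genes had more calls for the group than for the code, a difference that was not tested. Of 29 immediate early genes 4 were higher in B2 and 0 lower (median -0.07), near the 13.4% of all genes that were higher. In BrapcKO 16 were lower and 0 higher (median -0.97), where 8.07% of all genes were called in either direction. Egr4, an activity-induced transcription factor, was called for both: it stood at 28, 46.1 and 35.8 CPM in the B2 controls and at 9.6 CPM in BrapcKO 21, against 11 and 8.7 CPM in the B1 controls and 4.11 to 7.24 CPM in the B1 BrapcKO libraries. So each group was higher in B2 than in B1, and over both groups the codes overlapped. Junb, another such factor, differed by 0.97 for the code and -1.01 for the group. Reactive astrocyte genes were higher in 8 and lower in 0 of 20 for the group (median 0.89), and for the code 1 was higher and 3 lower (median -0.41).

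The mitochondrial genome's own genes diverged. Of 7 measured, 1 was higher and 4 were lower in B2. The higher one was mt-Co1, a subunit of cytochrome c oxidase, with a log2 difference of 0.70, and 51.1% of its windows occur at another locus. Of the lower ones, mt-Nd4 has 62.23% of its windows elsewhere and differed by -0.43. Whether shared windows bear on either gene was not tested. As to mt-Co1, its levels are given next. This gene, mt-Co1, stood at 11100, 10900, 7780 and 11000 CPM in control 22, 23, 24 and BrapcKO 21 and at 5790 to 6940 CPM in B1. The most lowered was mt-Nd5, a subunit of complex I, at 458, 479, 509 and 508 CPM against 938 to 1230 CPM in B1 (log2 difference -1.14, edgeR adjusted p 1.9e-06). The codes did not overlap for mt-Co1 or mt-Nd5.

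Brap itself did not follow the code beyond the spread of the libraries. It ran from 88.1 to 110 CPM in B1 (median 97.7) and stood at 76.7, 84.2, 98.6 and 109 CPM in control 22, 23, 24 and BrapcKO 21. The code difference was -0.01 (SE 0.10, edgeR adjusted p 0.95). The group difference at fixed code was 0.23 (adjusted p 0.18), so the counts give no lower Brap in BrapcKO at either code, and directions between the groups rest on the labels.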

How the data were processed

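The authors deposited a table of unnormalised gene counts with a column for each library, per the file headers. The submitters' processing notes name FastQC, Subread, featureCounts, DESeq2, edgeR, mm10 and GRCm38, and their settings for strand and multi-mapping reads are not stated in the sources used here. Per the labels' protocols, total RNA was depleted of ribosomal RNA. Identifiers of 14271 of 14276 genes matched GENCODE M21. Counts were fitted with edgeR 4.0.16 (TMM, robust quasi-likelihood, group and title code as terms) in R 4.3.3, with Benjamini-Hochberg adjustment over all genes; the default low-count filter removed none. DESeq2 1.42.0 and limma 3.58.1 were alternatives. Steps were tested on simulated data. Intervals for read ratios are exact 95% binomial intervals. Length is the median over a gene's protein-coding transcripts, or all if it has none. No column of per-sample values was left unused.

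The libraries, lists and tests were chosen with earlier results of these data known. Genes are named by rule: among called genes of mean log2 CPM 0 or more whose codes do not overlap, the 10 largest rises and falls and the 5 smallest p-values each way; up to 4 called members of each list by p, or 2 where none was called, of which a part is printed; and Brap. Predicted and Y-linked genes are not named. A gene that the rule names is not reported here. The overlap classes were drawn up after values were seen.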

Additional observations from a re-analysis of the deposited data

Results flagged for a closer look

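Values far from the others of the same code were looked for in 136 sets (64 genes and 4 library measures, in B1 and in B2), and 13 stood out by Dixon's test at its 95% critical value, which chance alone gives about 1 time in 20. Control 24 accounted for 9 of them, all against the other B2 libraries. Actg1 was at 327 CPM there (others 204 to 205). Genes otherwise almost without reads in B2 had some in control 24: Hipk4 2.35 CPM (others 0.104 to 0.142), Klhl34 1.77 (0 to 0.139), Proz 0.347 (0 to 0.0354), Igf2bp3 0.193 (0.0346 to 0.0354), Lrtm1 0.193, Tex47 0.0771 and Speer4b 0.0385 (the last 3 at 0 elsewhere in B2). mt-Co1 was low in control 24, at 7780 CPM (others 10900 to 11100). Cox7c was high in BrapcKO 21, at 66.7 CPM (others 44.9 to 46.9). In B1, Actg1 was at 2.7 CPM in BrapcKO 05 (others 1.07 to 1.65), Junb at 61.2 CPM in control 08 (others 26.8 to 39.6) and Grin1 at 199 CPM in BrapcKO 04 (others 190 to 193).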

How the results depend on the processing

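The number of genes called for the code stayed within 1.5 times the main count under DESeq2, limma-voom, RLE factors, library totals, a 1 CPM minimum, thinned counts, length and GC offsets, a Y-linked term, 4 genotypes, no group term and TMM factors from stand-alone genes (3177 to 4055). Fitted by themselves, a choice made after seeing the data, stand-alone genes gave 490 calls for the code, 42 in controls alone and 509 for the group. In controls alone length and GC offsets gave 3102 calls. For the code by group, DESeq2 called 31 genes. Leaving out 1 library at a time gave 2314 to 3987 calls for the code, 667 to 4148 in controls alone, 406 to 1454 for the group and 0 to 5 for the code by group; the total count difference ran from 8230000 to 9080000, the length slope difference from -0.166 to -0.152, and the span slope difference from -0.0839 to -0.0719; for these 3, leaving out BrapcKO 21, control 08 or control 09 leaves too few arrangements for p under 0.05. Of 64 named genes 53 kept their direction and call under every setting run. Brap, not called, changed sign, at 0.07 with length and GC offsets, 0.01 with the Y-linked term and between -0.07 and 0.05 with 1 library left out. Tek, Kdr, Junb, Erbb4, Pclo, Ppp1r1b, Pcdh9, Col19a1, Mbp and Pecam1 lost their call under at least 1 setting; the causes were not tested. With library totals only, the group calls split 515 higher and 551 lower, against 446 and 706. No paired analysis was possible because the libraries of different groups share no replicate number. Without control 24 the B1 to B2 read ratios of Hipk4 and Proz were 411 and 602, against 81.9 and 143. Genes with few reads in B2 are limited by depth: 1 read is 0.0346 to 0.0385 CPM there.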
